A study of Mus musculus with 15 samples.

Results

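The potassium channel genes of mouse endometrial organoids were taken as all genes of the normalized expression table with a *Kcn* symbol, meaning the letters Kcn, at least one more letter and a digit, with *Kcng1* left out. There were 48 of them among 16729 genes in the table, out of 97 such symbols in the mouse annotation. Organoids are epithelial cultures grown from single cells of the uterus in Matrigel, here with EGF, FGF10, HGF and media conditioned with WNT3a, R-spondin and noggin. Control organoids carried floxed alleles of both *Smad2* and *Smad3* and no Cre, and were given DMSO (control + vehicle, n = 3) or 500 nM A83-01, a blocker of the receptor kinases ALK4, ALK5 and ALK7 (control + A83-01, n = 4). *Smad2/3* cKO organoids carried the same floxed alleles with *Ltf-cre*, a Cre recombinase expressed from the lactoferrin gene in uterine epithelium, and were given DMSO (*Smad2/3* cKO, n = 4) or with 500 nM A83-01 (*Smad2/3* cKO + A83-01, n = 4). The mice were females of a mixed C57BL/6J and 129S5/SvEvBrd background, by the study's general statement 6 to 8 weeks old unless indicated otherwise, and estradiol given at weaning had switched on the Cre.

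Potassium channels are membrane pores that let potassium leave or enter a cell along its electrochemical gradient, and so set the membrane voltage. In a secretory epithelium such as that of the uterus, potassium leaving through these pores keeps the cell interior negative, which drives chloride and water toward the lumen. The pore-forming subunits belong to the voltage-gated, calcium- or sodium-activated, inward rectifier and two-pore families, and small auxiliary subunits, among them the KCNE proteins, decide at which voltages a given pore opens. KCNQ1, a voltage-gated pore, conducts at every voltage when it is joined by KCNE2, as in the acid-secreting cells of the stomach, or by KCNE3, as in colon and airway.

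The values are normalized counts, the read counts estimated for each gene divided by a size factor per sample, and their sum was 20.2 to 24.4 M in each sample. A sample gives 1 library, and bulk RNA cannot tell fewer cells of a kind from less RNA per cell. The organoids carried the epithelial markers *Epcam*, *Cdh1*, *Krt8*, *Krt18* and *Krt19*, whose summed level was 150865 to 190590 for control + vehicle samples, 102903 to 159344 for those with A83-01, 79950 to 132181 for *Smad2/3* cKO and, with the inhibitor added, 78301 to 115482. Control + vehicle did not overlap either *Smad2/3* cKO group in this sum, nor in *Krt8*, *Krt18* and *Krt19*, which were lower there. *Epcam* and *Cdh1* did overlap, and *Epcam* averaged 23268 in control + vehicle and 24265 in *Smad2/3* cKO. None of the 5 epithelial genes was called in *Smad2/3* cKO vs. control + vehicle. In that comparison 1 of 4 leukocyte genes tested was called higher, and *Acta2*, the 1 smooth muscle gene tested, was called lower. The stromal list was at 27.4 to 191 in control + vehicle and 2.96 to 24.7 in *Smad2/3* cKO. With A83-01 it was at 4.79 to 54.7 in control and 3.99 to 129 in *Smad2/3* cKO organoids. The endothelial and nerve lists did not exceed 27.6 in any sample. The smooth muscle list (*Acta2*, *Des* and *Cnn1*) was at 55.1 to 192 in control + vehicle and 5.75 to 23.1 in *Smad2/3* cKO. With A83-01 it was at 13.1 to 38.7 in control and 10.8 to 43.5 in *Smad2/3* cKO organoids. The leukocyte list (*Cd68*, *Csf1r*, *Ptprc* and *Adgre1*) had a summed level of 1261 to 2896 for control + vehicle samples, 3402 to 8757 for those with A83-01, 2116 to 5795 for *Smad2/3* cKO and, with the inhibitor added, 4032 to 7970, and the part of these shifts between cell type lists in the results was not tested. *Smad2* ran from 1045 to 1335 in control + vehicle and from 821 to 924 in *Smad2/3* cKO (adjusted p = 0.0651, limma), while *Smad3* ran from 1532 to 1741 and from 1170 to 1977 (adjusted p = 0.828, limma). These values count reads from the whole gene, including exons that the deletion leaves in place, so they do not check the genotype.

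Of the 48 genes, 22 had a mean of at least 10 normalized counts over the 15 samples and were tested. The 17 voltage-gated pore genes gave 9 of them, the 9 two-pore genes gave 5, the 10 auxiliary subunits gave 5, the 5 calcium- or sodium-activated genes gave 2 and the 7 inward rectifiers gave 1. The other 26 had means of 0.718 to 8.75, with no single sample above 37.8, and 25 of them were at 0 in at least 1 sample. For 9 of the 22 tested genes at least 1 group had a mean below 10, so that these genes could pass the filter through the group in which they were high. In all of these but *Kcnk12* the lowest mean was that of control + vehicle.

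**Figure D1:**
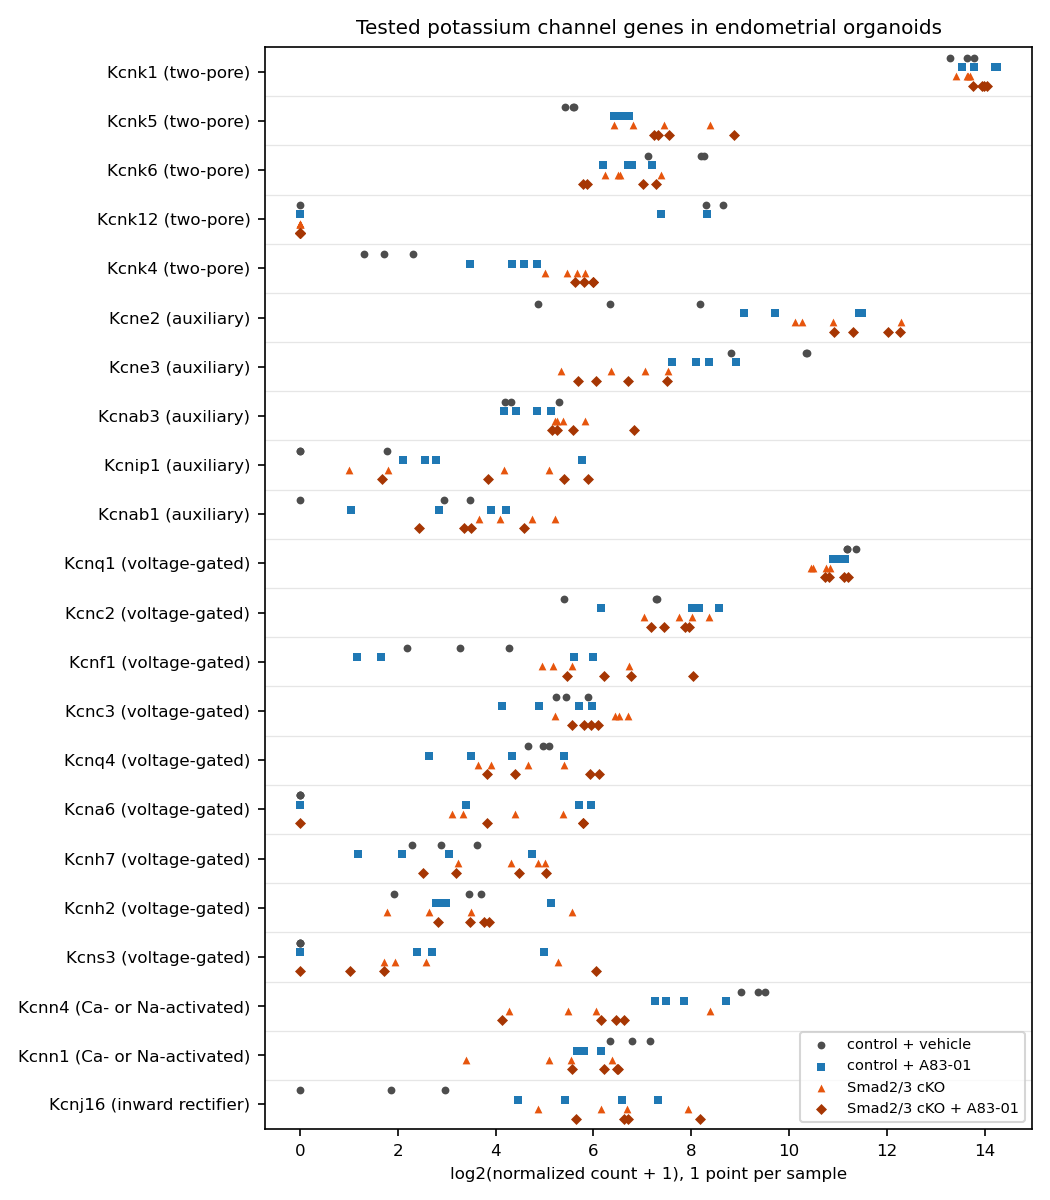
Normalized counts of the 22 tested potassium channel genes, ordered by family, on the horizontal axis as log2(normalized count + 1), with 1 point per sample and a symbol for each of the 4 groups. *Kcnk1* lies far to the right in every sample, and *Kcne2*, *Kcnk4* and *Kcnj16* have the control + vehicle points to the left of all others.

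One gene made up most of the potassium channel message. *Kcnk1*, which encodes the two-pore background channel TWIK-1, accounted for 62.3% to 82.0% of the summed normalized counts of the 48 genes in a sample. Per kb of exon its mean level over the 15 samples was 6391 normalized counts, against 1141 for *Kcne2*, 493 for *Kcnq1* and 194 for *Kcne3*. *Kcnk1* measured 14143, 9967 and 12718 in control + vehicle, 19083, 11879, 14089 and 19572 in control + A83-01, 10995, 12854, 12892 and 13316 in *Smad2/3* cKO and 13844, 15797, 16876 and 16226 in *Smad2/3* cKO + A83-01. The control groups overlapped, and its log2 fold change was 0.04 in *Smad2/3* cKO vs. control + vehicle (95% interval −0.32 to 0.39, adjusted p = 0.890, limma) and 0.38 in control + A83-01 vs. control + vehicle (95% interval −0.14 to 0.90, adjusted p = 0.386).

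The clearest contrast was between the KCNQ1 partners *Kcne2* and *Kcne3*. For reference, the 250 bases upstream of each RefSeq start of both genes (build GRCm38.p6, plus strand, 5′ to 3′) are shown, since these genes changed in opposite directions. Capitals mark 3 short motifs searched on both strands, the SMAD binding element GTCTG, the AP-1 site TGANTCA and the KLF GC box GGGCGG, each of which may also appear in its reverse complement.
*Kcne2*, first start, chr16:92292139-92292388: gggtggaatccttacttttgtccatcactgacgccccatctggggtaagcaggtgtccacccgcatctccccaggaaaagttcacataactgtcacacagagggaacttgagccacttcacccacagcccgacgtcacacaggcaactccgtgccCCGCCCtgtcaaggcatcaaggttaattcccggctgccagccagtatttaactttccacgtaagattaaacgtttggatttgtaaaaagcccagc
*Kcne2*, second start, chr16:92295366-92295615: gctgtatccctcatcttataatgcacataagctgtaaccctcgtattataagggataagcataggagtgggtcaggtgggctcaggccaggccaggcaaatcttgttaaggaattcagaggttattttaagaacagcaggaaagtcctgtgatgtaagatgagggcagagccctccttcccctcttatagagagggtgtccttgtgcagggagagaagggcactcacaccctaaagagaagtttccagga
*Kcne3*, first start, chr7:100176420-100176669: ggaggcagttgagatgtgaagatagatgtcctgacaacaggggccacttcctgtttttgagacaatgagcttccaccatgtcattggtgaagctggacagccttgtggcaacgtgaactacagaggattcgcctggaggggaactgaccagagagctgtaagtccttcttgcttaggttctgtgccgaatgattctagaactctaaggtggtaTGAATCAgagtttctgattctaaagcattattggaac
*Kcne3*, second start, chr7:100178433-100178682: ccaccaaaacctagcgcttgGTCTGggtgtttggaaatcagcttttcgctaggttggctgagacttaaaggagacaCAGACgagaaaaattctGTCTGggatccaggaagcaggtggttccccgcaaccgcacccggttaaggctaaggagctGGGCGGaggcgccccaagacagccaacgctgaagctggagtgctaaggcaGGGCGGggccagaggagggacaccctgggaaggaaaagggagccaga
The *Kcne3* window at the second start held 3 copies of the SMAD element and 2 GC boxes, and the first start held 1 AP-1 site. Neither *Kcne2* window held a SMAD element, and the first held 1 GC box. Other genes higher in *Smad2/3* cKO than in control + vehicle did hold it, with 1 copy in *Kcnk4*, 1 at the second start of *Kcnj16* and 3 in *Kcnk5*, the last not called. *Kcnn4*, lower there but not called, held 2. Across 32851 upstream windows of the same length, 42.2% held at least 1 SMAD element, 6.75% an AP-1 site and 32.7% a GC box. Of the 31 windows of 17 tested potassium channel genes with an entry, 13 held the SMAD element, 1 the AP-1 site and 15 the GC box. A match is a description of the letters and no evidence that a protein binds there.

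*Kcne2* measured 28.2, 79.8 and 289 normalized counts in control + vehicle and 538, 845, 2870 and 2779 in control + A83-01. It measured 1108, 1913, 1234 and 4977 in *Smad2/3* cKO and 4968, 1941, 2530 and 4151 in *Smad2/3* cKO + A83-01. Each of the 3 control + vehicle samples was below all 12 others, while the remaining groups overlapped. Control + vehicle averaged 132 ± 138 (SD, n = 3), and the *Smad2/3* cKO samples averaged 2308 ± 1814 (SD, n = 4).

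*Kcne3* went the other way. It measured 1310, 1315 and 449 in control + vehicle, 330, 480, 272 and 195 in control + A83-01, 81.3, 39.5, 183 and 132 in *Smad2/3* cKO and 50.6, 103, 180 and 65.7 in *Smad2/3* cKO + A83-01. Every sample of both *Smad2/3* cKO groups lay below every control sample, with or without A83-01, whereas control + vehicle and control + A83-01 overlapped at 449 and 480. Control + vehicle averaged 1025 ± 498 (SD, n = 3), and the *Smad2/3* cKO samples averaged 109 ± 62.4 (SD, n = 4).

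The levels of the pair, both per kb of exon, therefore changed order. *Kcne3* exceeded *Kcne2* by 46.1, 16.4 and 1.54 times in the 3 control + vehicle samples. *Kcne2* exceeded *Kcne3* by 1.64, 1.77, 10.6 and 14.4 times in control + A83-01, by 13.7, 48.8, 6.77 and 37.9 times in *Smad2/3* cKO and by 98.8, 19.0, 14.1 and 63.6 times in *Smad2/3* cKO + A83-01. Control + vehicle replicate 3 stood nearest to the A83-01 samples for both genes.

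**Figure D2:**
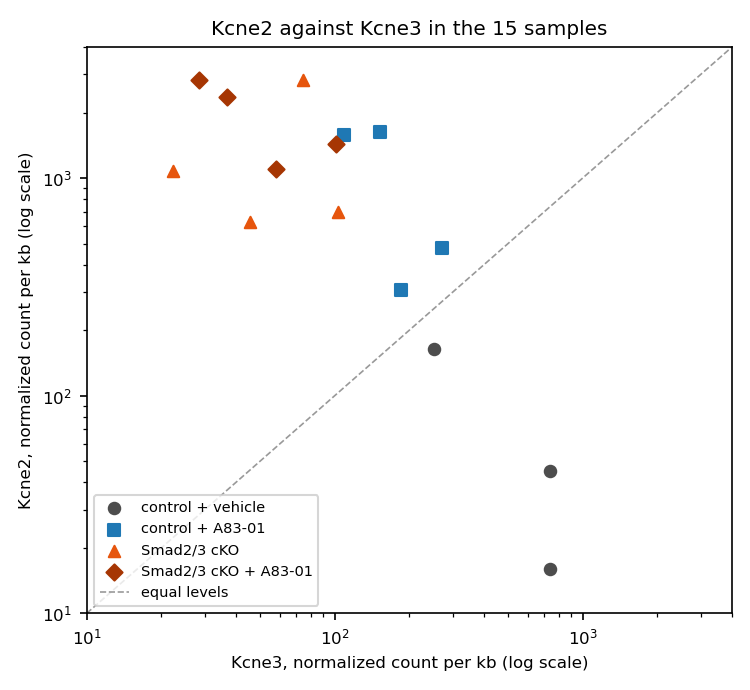
*Kcne2* (vertical axis) against *Kcne3* (horizontal axis) in the 15 samples, as normalized counts per kb of exon on log scales, with the dashed line at equal levels. The 3 control + vehicle samples lie below the line and the other 12 above it.

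*Kcnq1*, the pore that both proteins join, differed less between groups. It measured 2661, 2324 and 2339 in control + vehicle, 2269, 1910, 2129 and 2116 in control + A83-01, 1438, 1823, 1732 and 1394 in *Smad2/3* cKO and 2235, 1703, 2354 and 1815 in *Smad2/3* cKO + A83-01. All 4 *Smad2/3* cKO samples were below all 7 control samples, and the *Smad2/3* cKO + A83-01 samples spanned both ranges. Its exons share 121 bases with the antisense RNA *Kcnq1ot1*, and reads of the pair cannot be told apart there since the kit does not mark strand.

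For the question of what loss of both SMADs does, *Smad2/3* cKO was compared with control + vehicle. A gene was called at a Benjamini-Hochberg adjusted p below 0.01 over all 13066 genes tested and a difference of more than 1.4-fold up or down, with limma on log2(normalized count + 1). In this comparison 3 of the 22 potassium channel genes were called higher, against 4.09% of all genes tested, and 1 was called lower, against 3.25%. *Kcne2* rose by 4.43 on the log2 scale (standard error 0.75, adjusted p = 0.00521, limma). *Kcne3* fell by 3.27 (standard error 0.56, adjusted p = 0.00528). The other 2 genes called were *Kcnk4* and *Kcnj16*. The median log2 fold change of the 22 genes was 0.98 and that of all genes tested 0.01. Genes low in control + vehicle that passed the filter through other groups, *Kcnk4* and *Kcnj16* among them, enter this median and the counts here. The groups did not overlap for 11 of the 22 genes, against 30.7% of all genes, and 9 of the 22 had an adjusted p below 0.05 with the same fold thresholds, against 18.1% of all.

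These calls rested on few samples. Leaving out 1 sample at a time, the number of potassium channel genes called ran from 0 without control + vehicle replicate 1, to 1 without control + vehicle replicate 2 or without *Smad2/3* cKO replicate 1, 2 or 4, to 4 without control + vehicle replicate 3 and 5 without *Smad2/3* cKO replicate 3. The genes called without control + vehicle replicate 3 were not the same 4, since *Kcnk12* was among them and *Kcnj16* was not. Calls among all genes fell as well, from 958 to 262 and 279 without control + vehicle replicate 1 and 2, to 496, 518 and 429 without *Smad2/3* cKO replicate 1, 2 and 4, and to 641 and 952 without replicate 3 of either group. Each of the 4 potassium channel genes called with all samples kept its direction in every such fit. *Kcne2* had a log2 fold change of 3.63 without control + vehicle replicate 1 and 5.29 without replicate 3 of that group.

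*Kcnk4* encodes TRAAK, a two-pore channel opened by membrane stretch and fatty acids. It measured 1.48, 3.93 and 2.29 normalized counts in control + vehicle, 19.3, 27.6, 10.2 and 23.0 in control + A83-01, 55.5, 42.9, 49.6 and 31.3 in *Smad2/3* cKO and 62.4, 48.5, 55.1 and 62.8 in *Smad2/3* cKO + A83-01. The ranges of the control groups did not touch, and the samples given DMSO were the lower ones. Both *Smad2/3* cKO groups lay above every control sample, and their own ranges overlapped. *Kcnk4* rose by 3.71 on the log2 scale in *Smad2/3* cKO vs. control + vehicle (standard error 0.53, adjusted p = 0.00261, limma), from a level near the lowest that can be measured. With the pseudocount and other settings this value ran from 2.11 to 4.15. Of its 4465 exon bases, 587 are shared with *Catsperz* on the same strand, a sperm calcium channel subunit gene, which measured 0.842 to 4.36 in control + vehicle and 11.2 to 35.4 in *Smad2/3* cKO, so part of the reads may belong to either gene. The 250 bases upstream of its RefSeq start (build GRCm38.p6, minus strand, 5′ to 3′) hold 1 SMAD element and 1 GC box, in capitals.
*Kcnk4*, chr19:6934516-6934765: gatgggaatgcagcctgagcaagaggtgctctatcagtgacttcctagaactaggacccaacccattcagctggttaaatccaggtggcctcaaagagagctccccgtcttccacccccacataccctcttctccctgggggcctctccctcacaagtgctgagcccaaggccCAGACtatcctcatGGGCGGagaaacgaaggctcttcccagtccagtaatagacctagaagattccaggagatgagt

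*Kcnj16*, the inward rectifier KIR5.1, which joins other inward rectifier subunits to form a channel sensitive to pH, was the only member of its family above the filter. It measured 6.81, 2.63 and 0 in control + vehicle and 94.4, 158, 21.0 and 41.5 in control + A83-01. It measured 245, 101, 28.2 and 70.4 in *Smad2/3* cKO and 97.9, 290, 48.7 and 104 in *Smad2/3* cKO + A83-01. The control + vehicle samples were below all others, and the other 3 groups overlapped. *Kcnj16* rose by 4.80 on the log2 scale in *Smad2/3* cKO vs. control + vehicle (standard error 0.89, adjusted p = 0.00712, limma). With control values this low the size depended on the setting, from 2.91 to 6.41, and the call was lost when any 1 of 6 samples was left out, all but *Smad2/3* cKO replicate 3 (adjusted p up to 0.0266).

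**Figure D3:**
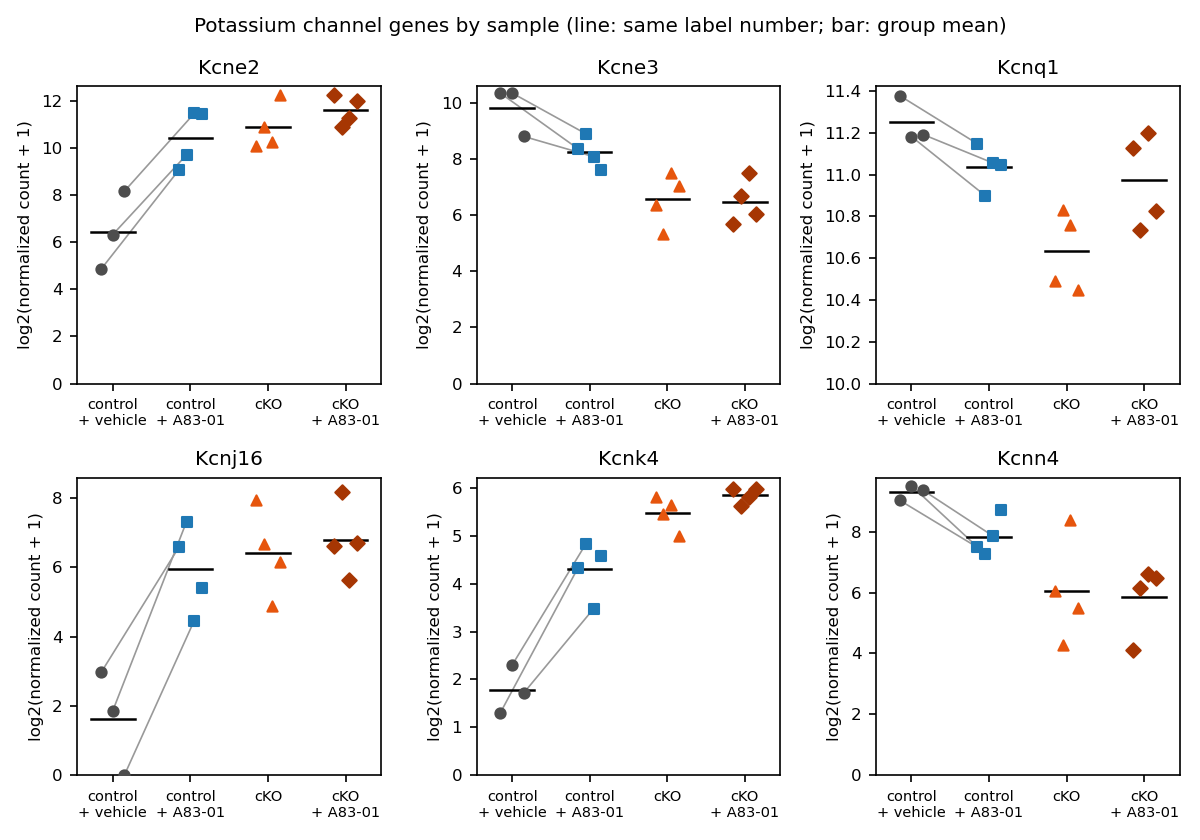
Log2(normalized count + 1) on the vertical axis for 6 potassium channel genes in the 4 groups on the horizontal axis, with 1 point per sample, a bar at each group mean and a grey line between control samples with the same label number. The axis of *Kcnq1* starts at 10 and the others at 0. The lines rise for *Kcne2*, *Kcnj16* and *Kcnk4* and descend for *Kcne3*, *Kcnq1* and *Kcnn4*.

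Several genes with wide group differences did not pass the adjusted p of 0.01. *Kcnn4*, the calcium-activated channel KCa3.1 that supports chloride secretion and is also known from lymphocytes and macrophages, measured 521, 729 and 657 in control + vehicle, 178, 152, 231 and 416 in control + A83-01, 65.8, 18.3, 331 and 43.5 in *Smad2/3* cKO and 16.4, 70.2, 97.4 and 87.4 in *Smad2/3* cKO + A83-01. The 3 control + vehicle samples were above all 12 others, and *Smad2/3* cKO replicate 3 stood above the rest of its group. The log2 fold change in *Smad2/3* cKO vs. control + vehicle was −3.25 (standard error 0.79, adjusted p = 0.0221, limma), and without *Smad2/3* cKO replicate 3 it was −4.03 (adjusted p = 0.00157). Over all fits with 1 sample left out it ran from −4.03 to −2.66, with an adjusted p of up to 0.0763. The leukocyte list had its lowest range in control + vehicle, where *Kcnn4* was highest, but that range overlapped the one of *Smad2/3* cKO. Most of the sum was *Cd68*, which overlapped between these groups, as did *Csf1r* and *Adgre1*. *Ptprc* did not, at 12.5 to 38.5 in control + vehicle and 123 to 309 in *Smad2/3* cKO. A link between the list and *Kcnn4* was not tested.

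*Kcnk5*, the two-pore channel TASK-2 that opens at alkaline pH, measured 41.7, 47.8 and 47.1 in control + vehicle, 92.2, 85.3, 105 and 96.4 in control + A83-01, 334, 84.4, 173 and 111 in *Smad2/3* cKO and 158, 471, 186 and 150 in *Smad2/3* cKO + A83-01. Its control + vehicle samples were below all others by a wide margin relative to their own spread. The log2 fold change in *Smad2/3* cKO vs. control + vehicle was 1.73 (standard error 0.46, adjusted p = 0.0308, limma). *Kcnq1* was lower there by 0.62 on the log2 scale (log2 fold change −0.62, adjusted p = 0.0165).

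*Kcna6*, the voltage-gated channel Kv1.6, was at 0 in all 3 control + vehicle samples and at 9.04, 7.64, 19.995 and 40.3 in *Smad2/3* cKO (adjusted p = 0.0105, limma). In control + A83-01 it was at 0, 9.51, 61.1 and 51.0, and in *Smad2/3* cKO + A83-01 at 13.1, 0, 54.0 and 54.0. Its exons share 2355 bases with an antisense gene, *Gm26673*. *Kcns3*, a silent subunit that modifies Kv2 channels, was likewise at 0 in all control + vehicle samples and at 38.0, 2.85, 2.30 and 4.96 in *Smad2/3* cKO, where 1 sample carried most of the group's mean. *Kcnip1*, a calcium-binding partner of Kv4 channels, measured 0, 2.42 and 0 in control + vehicle and 17.1, 0.998, 33.0 and 2.47 in *Smad2/3* cKO, and these overlapped.

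*Kcnn1*, a small-conductance calcium-activated channel gene, measured 143, 80.1 and 110 in control + vehicle and 33.4, 45.6, 9.50 and 82.4 in *Smad2/3* cKO, with a log2 fold change of −1.66 (adjusted p = 0.108, limma). *Kcnc2*, the fast voltage-gated channel Kv3.2, measured 41.1, 156 and 154 against 327, 214, 130 and 257, with a log2 fold change of 1.13 (adjusted p = 0.156). Both pairs of groups overlapped. *Kcnf1*, a silent voltage-gated subunit named here after its values were seen, had a log2 fold change of 2.35 (adjusted p = 0.0360) in groups that did not overlap.

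The effect of the inhibitor was asked in control + A83-01 vs. control + vehicle. With limma 0 of the 22 genes were called in either direction, against 1.06% of all genes higher and 0.911% lower. At an adjusted p below 0.05 with the same fold thresholds there were 4, against 6.83% of all genes, and at an unadjusted p below 0.05 there were 11, against 22.0%. *Kcnj16* had a log2 fold change of 4.33 (adjusted p = 0.0276), *Kcnk4* of 2.54 (adjusted p = 0.0309), *Kcne2* of 3.97 (adjusted p = 0.0315) and *Kcnn4* of −1.47 (adjusted p = 0.0442). The groups did not overlap for 8 of the 22 genes, against 21.6% of all genes. These counts, too, take in genes low in control + vehicle that passed the filter through other groups, *Kcnj16* and *Kcnk4* among them.

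Replicates 1, 2 and 3 of control + vehicle carry the same label numbers as replicates 1, 2 and 3 of control + A83-01, and such pairs deviated together. Blocked on these pairs, the inhibitor comparison called 1 potassium channel gene, *Kcne2*, at a log2 fold change of 3.63 (adjusted p = 0.00309, limma). In the pairs *Kcne2* was 19.1, 10.6 and 9.93 times higher with A83-01. *Kcnk5* was 2.21, 1.79 and 2.23 times higher, at a blocked adjusted p of 0.119. *Kcnj16* went from 6.81 to 94.4, from 2.63 to 158 and from 0 to 21.0, at a blocked adjusted p of 0.0111. *Kcnn4* with A83-01 was 0.342, 0.209 and 0.352 of its paired value, and *Kcne3* was 0.252, 0.365 and 0.606 of it, at blocked adjusted p of 0.0142 and 0.0377. Over the 22 genes, 8 were higher in all 3 pairs and 6 lower in all 3, against 24.5% and 24.8% of all genes tested. The 8 include genes low in control + vehicle that passed the filter through other groups, such as *Kcnj16* and *Kcnk4*.

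**Figure D4:**
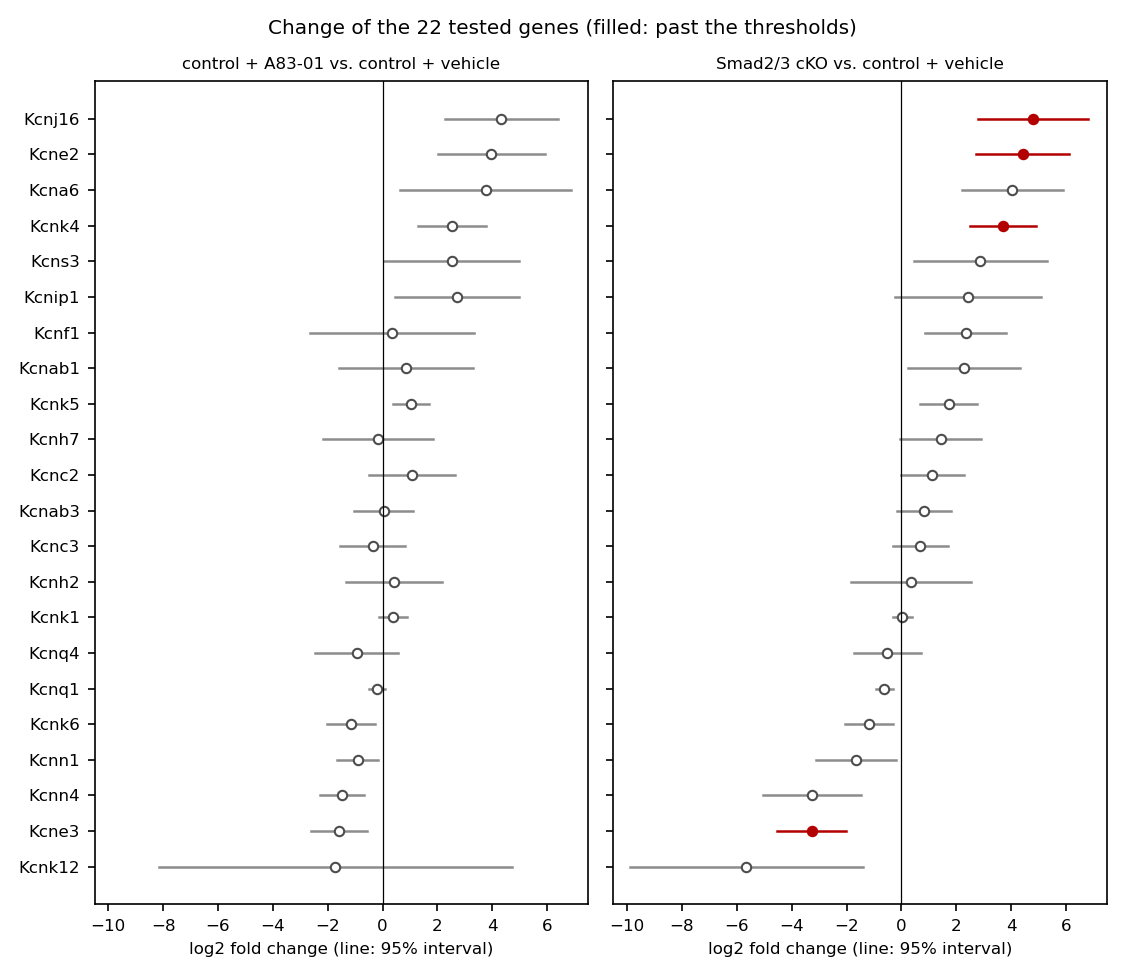
Log2 fold changes of the 22 tested potassium channel genes (horizontal axis, with 95% intervals as lines) for control + A83-01 vs. control + vehicle on the left and *Smad2/3* cKO vs. control + vehicle on the right, ordered by the right panel. Both panels share the control + vehicle samples, and the filled points are the 4 genes called in *Smad2/3* cKO.

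The same inhibitor in *Smad2/3* cKO organoids called 0 of the 22 genes with limma, as it did of all genes tested (0.00%). At an unadjusted p below 0.05 there were 2 of the 22, *Kcnk1* and *Kcnq1*, against 4.41% of all genes. *Kcnk1* had a log2 fold change of 0.33 (95% interval 0.07 to 0.59, adjusted p = 0.993) in groups that did not overlap, as they did not for 2.91% of all genes, and *Kcnq1* of 0.34 (95% interval 0.01 to 0.67, adjusted p = 0.993). *Kcne2* had a log2 fold change of 0.74 (95% interval −0.32 to 1.80), *Kcnk4* of 0.37 (95% interval −0.29 to 1.02) and *Kcnj16* of 0.38 (95% interval −1.16 to 1.92), each with an adjusted p of 0.993. *Kcne3* had one of −0.08 (95% interval −1.28 to 1.11, adjusted p = 0.995). These intervals leave room for changes of more than 2-fold in *Kcne2*, *Kcnj16* and *Kcne3* and, barely, in *Kcnk4*.

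Whether A83-01 acted differently in the 2 genotypes was tested as the difference of the effects in 1 fit of all 15 samples. None of the 22 genes was called with limma (0), against 0.551% of all genes tested, and 5 had an unadjusted p below 0.05, against 14.3%. The difference, *Smad2/3* cKO minus control, was −2.17 for *Kcnk4* (standard error 0.58, adjusted p = 0.0829), −3.95 for *Kcnj16* (standard error 1.18, adjusted p = 0.118) and −3.23 for *Kcne2* (standard error 1.02, adjusted p = 0.139). For *Kcne3* it was 1.51 (standard error 0.75, adjusted p = 0.384).

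A further pair of comparisons set the genotypes side by side with the inhibitor present. In *Smad2/3* cKO + A83-01 vs. control + A83-01, 0 of the 22 genes were called with limma, against 0.0153% of all, 6 had an unadjusted p below 0.05, against 9.52%, and the groups did not overlap for 5, against 6.12%. *Kcne3* had a log2 fold change of −1.76 (adjusted p = 0.197), *Kcnn4* of −1.99 (adjusted p = 0.292), *Kcnk4* of 1.54 (adjusted p = 0.203) and *Kcnk5* of 1.17 (adjusted p = 0.347), all in groups without overlap. In *Smad2/3* cKO vs. control + A83-01, which sets the deletion against the inhibitor, 0 were called, as of all genes (0.00%), 4 had an unadjusted p below 0.05, against 6.39%, and the groups did not overlap for 4, against 3.47%. There *Kcne3* had a log2 fold change of −1.68 (adjusted p = 0.591), *Kcnq1* of −0.41 and *Kcnk4* of 1.18 (both adjusted p = 0.718). *Kcne2* differed by 0.46 (95% interval −0.93 to 1.85, adjusted p = 0.834).

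*Kcnk12*, which encodes the two-pore subunit THIK-2, followed neither the genotype nor the inhibitor alone. It measured 401, 316 and 0 in control + vehicle, 321, 166, 0 and 0 in control + A83-01, and 0 in all 8 *Smad2/3* cKO samples. The 4 samples with reads were replicates 1 and 2 of both control groups, which share their label numbers, and *Smad2/3* cKO replicate 1, which carries the number of control replicate 1, was at 0. Over all 16729 genes, 7 others were at 10 or more in those 4 samples and at 3 or less in the other 11, among them *Gm10359*, at 6077 to 18439 in the 4 and 0 in the others, and *Olfr632*, at 27.0 to 57.5. *Kcnk12* was called in none of the 6 tests as reported. It was called lower in *Smad2/3* cKO vs. control + vehicle without control + vehicle replicate 3 (adjusted p = 0.000401, limma), and in *Smad2/3* cKO + A83-01 vs. control + A83-01 with all samples kept and the number series of the labels as a covariate (adjusted p = 0.000536). That series splits the labels at 390, and every *Smad2/3* cKO + A83-01 label lies below it. The difference is then taken against control + A83-01 replicates 1 and 2 alone. Both fits therefore set control samples among the 4 with reads against samples at 0, and do not test the genotype apart from this pattern. Without these 4 samples, in a fit of the other 11 samples that leaves 1 control + vehicle sample, *Smad2/3* cKO vs. control + vehicle called 218 of all genes and 2 potassium channel genes, *Kcnk4* and *Kcnj16*, while *Kcne2* had a log2 fold change of 2.71 (adjusted p = 0.0510) and *Kcne3* of −2.24 (adjusted p = 0.133). The lone control + vehicle sample gives no spread there and is assumed to vary like the other groups.

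Other genes of potassium transport, listed from their names, gave 27 tested genes, comprising the sodium-potassium and proton-potassium pumps, cation-chloride cotransporters, regulators and further potassium-conducting channels. In *Smad2/3* cKO vs. control + vehicle 1 was called higher and 0 lower, and in control + A83-01 vs. control + vehicle again 1 and 0. Both calls were *Sgk1*, a kinase that raises the activity or surface number of several ion channels, KCNQ1 among them. *Sgk1* measured 2069, 1506 and 1698 in control + vehicle, 3456, 4494, 5000 and 4051 in control + A83-01, 8433, 5705, 5360 and 10407 in *Smad2/3* cKO and 10488, 7245, 7735 and 9192 in *Smad2/3* cKO + A83-01. The control + vehicle samples were lowest, the control + A83-01 samples higher and both *Smad2/3* cKO groups higher still, without overlap between these levels. *Sgk1* rose by 2.05 on the log2 scale in *Smad2/3* cKO (standard error 0.24, adjusted p = 0.00112, limma) and by 1.27 with A83-01 (standard error 0.17, adjusted p = 0.00562), the latter with an adjusted p of 0.0197 once the pairs were blocked.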

How the data were processed

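RNA of organoids from 15 samples was made into libraries by the authors with a low-input kit that does not mark strand. The signal values the authors deposited are estimated counts per gene from Salmon 1.4.0 (GRCm39), divided by a DESeq2 1.32.0 size factor per sample, so whole reads were not recovered and count models were not used. A level of 3 was taken as the lowest that can be measured. Genes with a mean of at least 10 over the samples were fitted with limma 3.58.1 (lmFit, eBayes with trend) in R 4.3.3 on log2(normalized count + 1), each pair of groups on its own samples. Adjusted p-values run over all 13066 genes. The thresholds follow the study's methods. Replicate correlations of log2 values were 0.914 to 0.970. Where samples come from separate mice is stated for the groups, not for each label, and p-values measure the spread between these samples.

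Control samples with the same label number deviated together (r = 0.354 to 0.423 in the 3 pairs), so the inhibitor comparison in control organoids had a further fit blocked on that number. Control pairs with different numbers had a mean r of −0.133. Of these, control + A83-01 replicate 4 and control + vehicle replicate 3 reached 0.347. Levels per kb use summed exon lengths of the GENCODE annotation on GRCm38. Named were all potassium channel genes called in any test, the 2 highest of each family, those at 3 or less in 1 group with a mean of at least 10 in another, and called genes of the list of other potassium transport genes. The genes and lists were chosen with earlier results of these data known. Upstream sequences are from RefSeq on GRCm38.p6.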

Additional observations from a re-analysis of the deposited data

Results flagged for a closer look

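One value stood apart from its group. In control + A83-01, *Kcnh2*, the voltage-gated channel hERG, measured 34.3 normalized counts in replicate 4, against 6.61, 6.89 and 5.92 in the other 3 samples, and its gap took 0.920 of the group's range on the log2 scale, above Dixon's 95% critical value. This was 1 of 64 groups of 4 samples examined over the 22 tested genes, and chance alone marks about 1 in 20. The gene was called in no comparison.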

How the results depend on the processing

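No called value reversed its direction in 131 alternative values of 6 called gene results, of which 92 kept the call and 39 lost it. Uncalled values changed sign in 161 of 3052. In *Smad2/3* cKO vs. control + vehicle, the 4 potassium channel genes called (of 958 genes in all) became 2 (of 888) with a minimum mean of 50, 2 (of 440) with eBayes without trend, 9 (of 2359) at an adjusted p below 0.05, and 2 (of 218) in the fit of all samples but for replicates 1 and 2 of both control groups, an alternative added after seeing the data. Leaving out 1 sample gave 0 to 5 (of 262 to 952). In control + A83-01 vs. control + vehicle, the 0 called (of 257) became 1 (of 535) with sample weights, 2 (of 366) with the number series of the labels as a covariate, 3 (of 642) in 1 fit of all 15 samples and 4 (of 892) at an adjusted p below 0.05. With the number series as a covariate, *Smad2/3* cKO + A83-01 vs. control + A83-01 gave 2 (of 58) and the difference between genotypes 1 (of 61). In the former fit the difference is taken against control + A83-01 replicates 1 and 2 alone. The other potassium transport genes called with A83-01 in control organoids went from 1 to 0 without a filter, with equal column totals, with eBayes without trend and without replicates 1 and 2 of both control groups, to 2 with sample weights and to 3 at an adjusted p below 0.05, and leaving out 1 sample gave 0 to 1. In *Smad2/3* cKO vs. control + vehicle they went from 1 to 2 with the number series and in 1 fit of all samples, and to 5 at an adjusted p below 0.05, and leaving out 1 sample gave 1 to 2. Apart from the changes of sample or model named, the cause was not tested.

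With the replicate block, the inhibitor comparison in control organoids called 1 potassium channel gene (of 185 genes in all) and 0 other potassium transport genes. In *Smad2/3* cKO vs. control + vehicle samples with the same replicate number carry the same label number in 1 of 3 cases and do not pair (r = 0.0153 to 0.0774), and the replicate block called 1 potassium channel gene (of 186). *Smad2/3* cKO replicate 2 and *Smad2/3* cKO + A83-01 replicate 1 carry the same label number (r = 0.355), which the block on the replicate number separates. Samples of these groups with different numbers reached a similar r, 0.394 for *Smad2/3* cKO replicate 1 with *Smad2/3* cKO + A83-01 replicate 2. The block called 0 in the other 4 tests and changed no other call there. Low counts limit *Kcnk4*, *Kcnj16*, *Kcna6*, *Kcns3* and *Kcnip1*, whose control + vehicle values lie at or near 3.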
